A study of Mus musculus with 4 samples.

Results

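The loci described here carry clustered copies of the genes for spliceosomal small nuclear RNAs (snRNAs) in mouse or, at Rnu11, a single such gene. They were taken from the authors' table of 778 SOX3 peaks common to the testis samples as all rows whose nearest gene was Eapp, BC107364, Hfe2, Terc, Rdm1, LOC666331 or Rnu11, which gave 21 peaks. SOX3 is a transcription factor of the SOX family. Its chromatin immunoprecipitation and sequencing (ChIP-seq) came from postnatal day 7 testes of 129/SvJ mice, with 3 SOX3 ChIP samples, called replicates 1, 2 and 3, and 1 input sample whose values were not analysed here. The labels' protocols describe mice of a Sox3 null line crossed onto 129/SvJ and used at the sixth generation, with no genotype for a given testis, and a goat antibody raised against human SOX3. The labels number the ChIP samples as biological replicates and the protocols mention independent libraries. No source used here says whether each came from another animal, so the spread over replicates may in part be technical. The replicate lists held 2912, 2598 and 2734 peaks. The members were chosen by the scores, ranks and repeat names of their peaks in these lists. Recurrence, score, rank and width are therefore given as descriptions, with no test.

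The spliceosome removes introns from pre-mRNA, and its snRNAs recognise the intron ends by base pairing. U1 pairs with the 5′ splice site and U2 with the branch point, and U11 takes the role of U1 in the minor spliceosome, which removes a small class of introns. Most snRNA genes are short, lack introns and are transcribed by RNA polymerase II from promoters that bind the SNAPc complex, and the Integrator complex cuts the 3′ ends of their transcripts. U1 and U2 genes stand in many near-identical copies. SOX proteins bind short sites with an AACAAT-like core through their HMG domain.

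A U1 gene copy is shown as an example of the genes at these loci. LOC115489800, an snRNA gene within BC107364, was the only one of 21 snRNA genes at these loci that lay whole in a RefSeq promoter window, that of the long non-coding RNA gene Gm26232. The window, of RefSeq assembly GRCm38.p6, chr3:96450389-96450688, plus strand, is printed 5′ to 3′, with the 166 bases of the snRNA gene in capitals. These positions cannot be set against those of the peaks, which are in mm9.
LOC115489800: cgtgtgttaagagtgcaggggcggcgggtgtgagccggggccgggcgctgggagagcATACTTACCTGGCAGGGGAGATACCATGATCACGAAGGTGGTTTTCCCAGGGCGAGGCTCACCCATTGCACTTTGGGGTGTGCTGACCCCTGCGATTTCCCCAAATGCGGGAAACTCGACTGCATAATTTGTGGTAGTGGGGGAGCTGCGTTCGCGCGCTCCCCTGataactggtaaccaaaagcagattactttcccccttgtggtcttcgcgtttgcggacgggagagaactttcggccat
Counted from the first capital, bases 3 to 11 read ACTTACCTG, the stretch of U1 that pairs with the 5′ splice site. Bases 126 to 134 read AATTTGTGG, the site on which the ring of Sm proteins assembles. On either strand these letters occurred in 0.265% and 0.167% of 32851 RefSeq promoter windows of 300 bases. The SOX core AACAAT, held by 10.7% of the windows, was not in this one. Other SOX cores searched, AACAAAG (5.85% of windows) and then ACAATG (12.6%), were not in it either. The same was true of the octamer ATGCAAAT, a site of POU factors (1.74% of windows), and of the TATA box letters TATAAA (13.6%). A match of ACAATG that follows an A is also one of AACAAT. The letters GGGCGG, which SP factors are known to bind, were found 1 time in the bases before the snRNA gene and in 35.7% of windows. The RefSeq promoter windows of Eapp, BC107364 and LOC666331, the 3 member genes that have one, also held these letters, 1 time each, and no match of the other motifs searched. The window printed above begins 57 bases before the snRNA gene, so that most of the promoter of the U1 gene lies outside it, and it covers less than the peak at this place, which was 672 bp wide.

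The places counted at each locus were as many as the RefSeq snRNA genes in the interval compared, but both were chosen and the match is no test. Joining common peaks within 1000 bp of each other turned the 21 member peaks into 19 places on 4 chromosomes. Between Fcgr1 and Hjv (the current symbol of Hfe2) on chromosome 3, RefSeq listed 8 snRNA genes of 165 to 166 bp, and common peaks were found at 8 places. Between Tmem106a and Arl4d on chromosome 11 there were 5 snRNA genes of 187 to 191 bp and 5 places, and between Eapp and Snx6 on chromosome 12 there were 7 genes of 164 bp and 7 places. On chromosome 4, between Gmeb1 and Taf12, Rnu11 was the only snRNA gene and 1 place was counted. Of the 21 places, 2 had other nearest genes, Fcgr1 and Arl4d. By order along the chromosome the former stood opposite the snRNA gene Gm24830 and the latter opposite Rnu2-10. Places and genes were paired by order alone, since the builds differ, so the pairing names a gene for every place and does not show that the peak lies on it. The flanking genes, which set the numbers of snRNA genes, were chosen after the peaks had been seen. Places were counted only where the nearest gene was a listed gene, Fcgr1 or Arl4d. Any other common peaks in these intervals were not counted.

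The label of snRNA loci was only partly visible in the deposited annotation. An snRNA repeat was named at 10 of the 21 member peaks, against 4.63% of all common peaks, and this was a criterion of the choice. U1 was named at 7 and U2 at 3. The other 11 comprised 3 at promoters, 1 in an intron of BC107364, 2 in CpG islands, 1 in an MTC element, a retrotransposon of the LTR class, and 4 listed as intergenic with no repeat. Apart from the Rnu11 promoter peak, whether these 11 lay on an snRNA gene was not tested. Chromosome 3 also had 25 tRNA genes between Fcgr1 and Hjv, and none of the member peaks carried a tRNA repeat label, which was likewise absent from all 778 common peaks.

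All 21 member peaks were present in all 3 lists, against 29.9% of the 778 common peaks. A score of 100 or more in every list that held the peak was also reached by all 21, against 14.4% of the common peaks. Of the 21, 15 were within the 50 highest scores of every list, against 4.5% of the common peaks. Each score is a value the authors gave the peak, and it was read within its own list. The median rank of the member peaks was 28 in replicate 1, 26 in replicate 2 and 28 in replicate 3, and the ranks ran from 5 to 191, from 6 to 176 and from 6 to 137. The other common peaks had median ranks of 523, 492 and 472.5. The best scores of the 19 places held nearly the same order in the 3 lists, with Spearman correlations of 0.873, 0.889 and 0.863 over 19 places. U1 and U2 genes stand in near-identical copies, so places may share sequence, which was not compared, and these are descriptions.

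**Figure D1:**
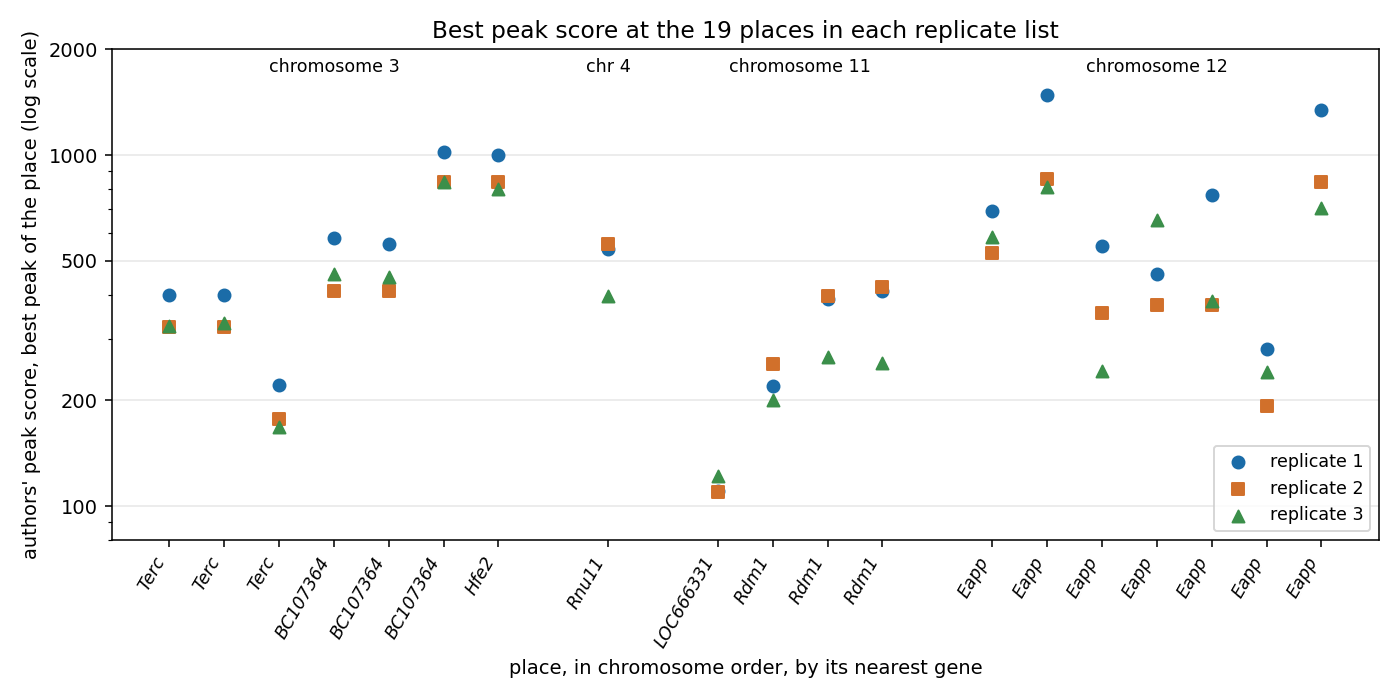
Best authors' peak score (log scale) at each of the 19 places, by nearest gene in chromosome order, with 1 symbol per replicate list. Every place had a peak in all 3 lists, from about 110 at LOC666331 to 1480.2 at an Eapp place in replicate 1.

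The cluster with most peaks lay beside Eapp, which encodes a protein that binds E2F factors. It held 9 common peaks at 7 places over 42.6 kb of chromosome 12. The first place, from 55797360 to 55798061, was classed at the Eapp promoter, and its midpoint lay 858 bp upstream of the transcription start site (TSS). It scored 692 in replicate 1, 526 in replicate 2 and 583 in replicate 3, and had rank 16 in each list. Its near edge was 507 bp from the TSS, so the peak did not reach the start itself.

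The second and seventh places of the cluster were its highest. The second, a U1 repeat from 55810883 to 55811993, had best scores of 1480.2, 857 and 813 in replicates 1, 2 and 3. The seventh, from 55838911 to 55839950 and with no repeat name, had 1348, 841 and 706. These 2 places ranked 5 and 6 in replicate 1, 6 and 7 in replicate 2, and 7 and 11 in replicate 3. The fifth place, a U1 repeat from 55830121 to 55831178, had scores of 769, 375 and 385. The third, also a U1 repeat, from 55814850 to 55815664, had 551, 354 and 242.5. Replicate 1 had the highest score at each of these 4 places, but the lists were called separately and a score gap between lists shows no change.

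At the fourth and sixth places the common table split the signal into neighbouring peaks. At the fourth, peaks from 55819724 to 55820200 and from 55820237 to 55820781 scored 323 and 457 in replicate 1 and 355 and 375 in replicate 2. In replicate 3 a single peak of 943 bp with a score of 653 covered both, and it is the same measurement under both rows. At the sixth, the peak in the MTC element, from 55835206 to 55835592, scored 281.0, 193 and 240.3, and its neighbour in a CpG island, from 55835630 to 55836060, 221, 111 and 136. This sixth place was the lowest of the cluster in every list.

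The 6 intergenic places of the Eapp cluster were spaced nearly as mirror images. From the second to the seventh place the distances between midpoints were 3820.2 ± 55.6, 4986.3 ± 58.8, 10425.0 ± 55.1, 4985.5 ± 32.5 and 3793.3 ± 67.8 bp (mean ± SD, n = 3 lists). The first of these distances differed from the last by 21.5, 6.0 and 53.0 bp in replicates 1, 2 and 3, and the second from the fourth by between −30.5 and 21.0 bp. None of these differences exceeded the larger SD of the spacings compared. That SD is of a single spacing over lists and does not measure the spread of the differences, which are paired within a list. The first distance was the longer of its pair in every list, with midpoints taken over all peaks of a place. In replicates 2 and 3 the seventh place included a weak peak on its central side, 278 and 341 bp wide, which replicate 1 lacked. Including it shortens the last distance, so in these lists the small differences and their order rest on this peak. Spacings without it were not computed. In 12 cases a list split a place into neighbouring peaks 36 to 50 bp apart, and in all 12 the higher of these peaks lay towards the centre of the 6 places. This range of gaps was set after the values were seen, and in the other 2 splits, with gaps of 1 and 2 bp at the seventh place, the higher peak lay away from the centre. The cases were 2 in replicate 1, 5 in replicate 2 and 5 in replicate 3. In the whole lists 12, 20 and 16 gaps were of 36 to 50 bp, and the direction was not examined there. The cases covered all 6 places, several of them in more than 1 list, so they are not 12 independent cases. At the second place, for example, the left peak scored 571 and the right 857 in replicate 2, while at the seventh the left scored 841 and the right 580.4. In replicate 3 the values were 643 and 813 at the second place and 706 and 630 at the seventh.

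**Figure D2:**
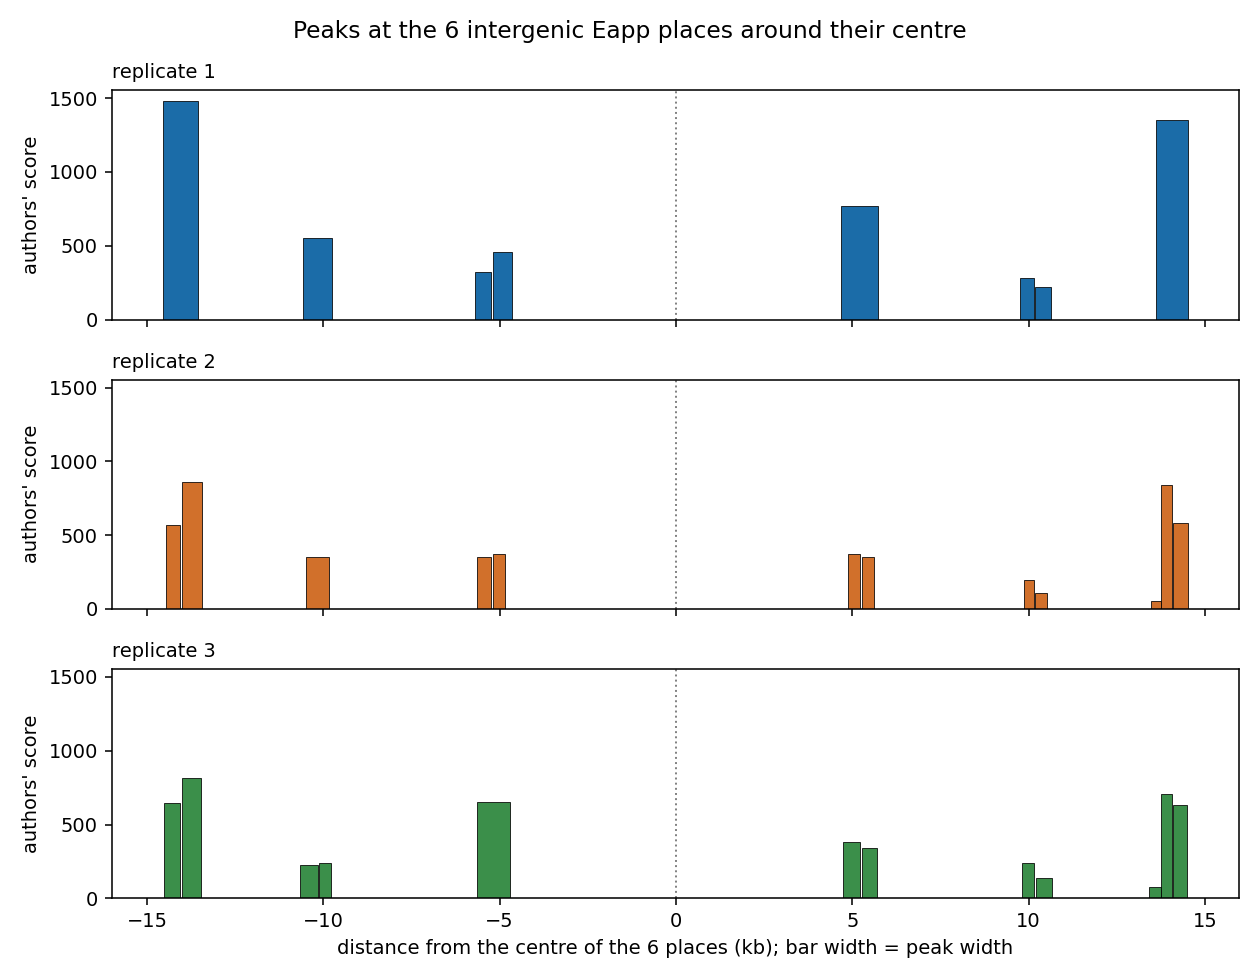
Authors' score of each peak at the 6 intergenic Eapp places, against distance in kb from the centre of the places, 1 panel per replicate; bar width is peak width. The places stand at nearly equal distances on both sides, with the highest scores outermost, and where a place is split by a gap of 36 to 50 bp the taller bar faces the centre; at the seventh place a further weak peak, 1 or 2 bp away in replicates 2 and 3, lies on the central side.

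Neighbouring peaks this close were seen among the members only in the Eapp cluster. Within 100 bp of each other lay 2 of its neighbouring pairs in replicate 1, 6 in replicate 2 and 6 in replicate 3, of 79, 55 and 71 in the whole lists. Over the whole lists, 2.73%, 2.13% and 2.62% of neighbouring peaks were as close. A common peak holding 2 or more peaks of 1 list occurred 4 times among the 21 members, against 7.58% of the common peaks. The weak peaks at the seventh place scored 54.5 in replicate 2 and 79.9 in replicate 3, beside 841 and 706. The other clusters had 1 peak per place in each list.

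On chromosome 3, 7 peaks over 130.0 kb had Terc, BC107364 or Hfe2 as nearest gene. None was at the start of Terc, which encodes the RNA template of telomerase. The 3 Terc peaks lay 54903 and 40626 bp downstream and 7961 bp upstream of its TSS. The first and second, from 96163526 to 96164181 and from 96177803 to 96178458, stood opposite Rnu1b1 and Rnu1b2, U1 genes, in the RefSeq order. The first scored 399.96, 323 and 327 in replicates 1, 2 and 3, and the second 399.96, 323 and 333. They carried no repeat name and were 656 bp wide in the common table. The third, a U1 repeat from 96226595 to 96226840, had the lowest scores of this cluster at 222, 178 and 168.

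The BC107364 peaks were higher. The peak in its first intron, from 96254033 to 96254704 and 1861 bp downstream of a TSS, scored 582 in replicate 1, 411 in replicate 2 and 458 in replicate 3. By order it is paired with LOC115489800, printed above. A U1 repeat peak from 96263777 to 96264448, opposite Rnu1b6, had nearly the same values at 559, 411 and 449. The last 2 places, 2106.5 bp apart, had the highest scores of chromosome 3. That from 96290120 to 96291035, 34348 bp upstream of a BC107364 TSS, scored 1018, 839.7 and 838. That from 96292180 to 96293188 was assigned to Hfe2, which encodes hemojuvelin, an iron regulator, with its TSS 36424 bp away, and scored 1001, 836 and 803. Both were U1 repeats and were among the 10 highest scores of every list.

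**Figure D3:**
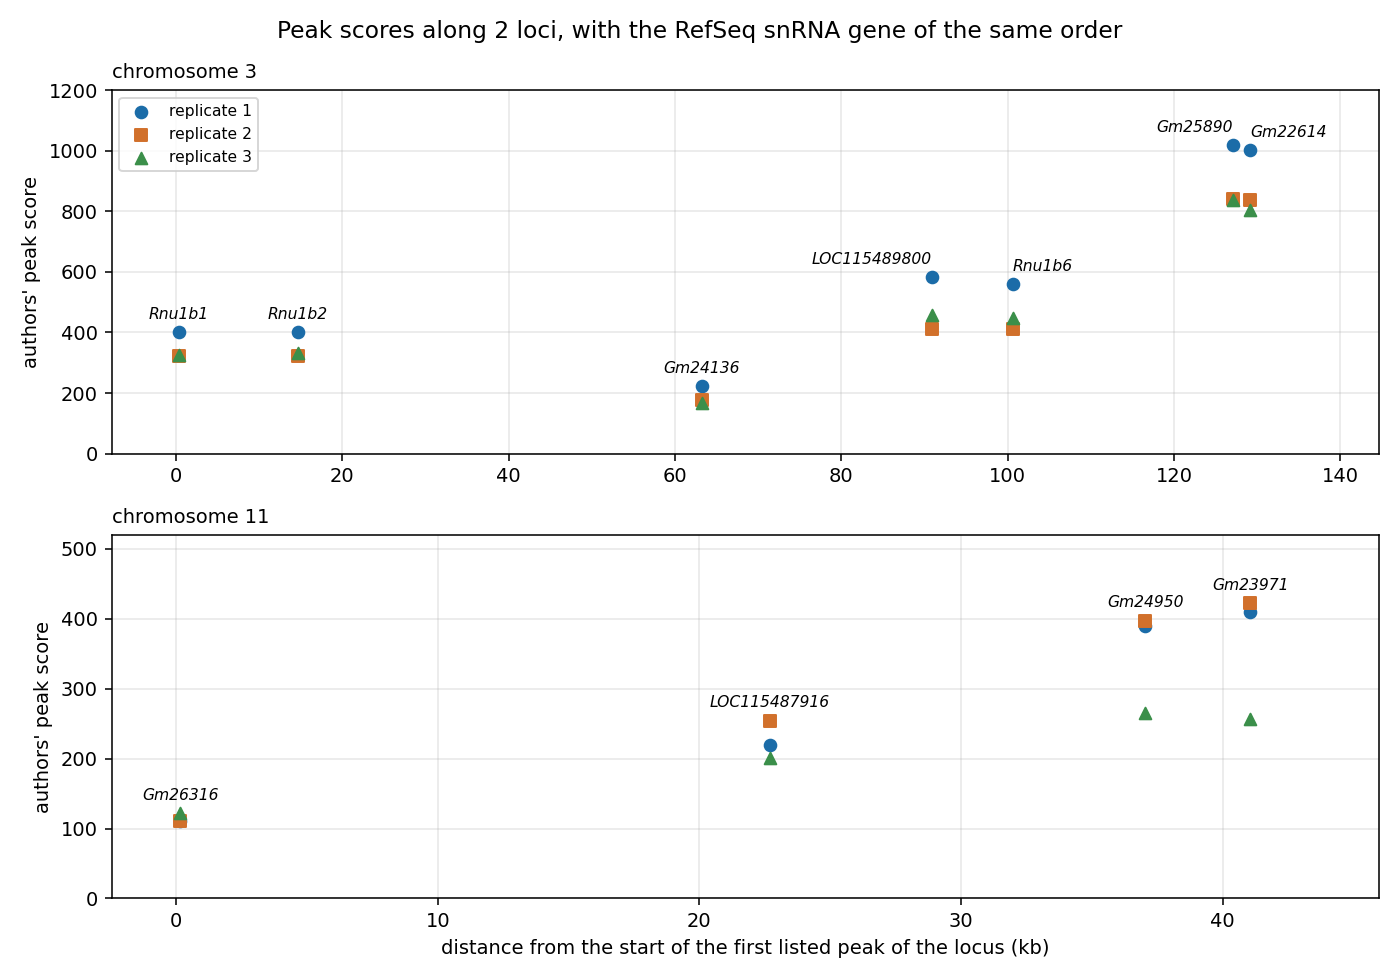
Authors' peak score (linear axes) of the member peaks against distance in kb from the start of the first peak of the locus on chromosomes 3 and 11, with 1 symbol per replicate and the RefSeq snRNA gene of the same order named at each place. On chromosome 3 the lowest scores, 168 to 222, are at Gm24136 and the highest, 803 to 1018, at the last pair; on chromosome 11 the lowest, 110.0 to 122, are at the first place.

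Several of these peaks were equal in score and width to another copy within a list, and some had mirrored edges. In replicate 1 both peaks of the first Terc pair scored 399.96 with a width of 656 bp. In replicate 2 the equal pairs were the same Terc places (323.11, 571 bp), the first pair of BC107364 places (411.08, 580 bp), and the right peak of the fourth and the left peak of the fifth Eapp place (374.91, 358 bp). Replicate 3 had none. Thus 2 of 21 member peaks in replicate 1, 6 of 25 in replicate 2 and 0 of 25 in replicate 3 had an equal elsewhere in their list. Weak peaks often share score and width, and the shares over whole lists were 48.1%, 44.8% and 47.8%. Among the 200 peaks of best rank they were 1%, 7% and 1%, the range that holds the tied members. These shares include the members, which were both of the 2 tied peaks in replicate 1 and 6 of the 14 in replicate 2.

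Measured inside the replicate 1 peak of the same place, the replicate 2 peak began 10 bp from the left and ended 75 bp from the right edge at the first Terc place, and 75 and 10 bp at the second. At the first BC107364 place the values were 42 and 50 bp, and 50 and 42 bp at the second. In replicate 3 the peak at the first BC107364 place began 215 bp inside the left edge and passed the right edge by 2 bp, and the values were exchanged at the second. For the Terc pair the replicate 3 edges were not mirrored. On the outer sides of that pair, replicate 1 alone had weak peaks of 226 bp each, with scores of 51.9 and 48.8, at 2383 and 2372 bp from the midpoints of the pair. No source used here tells how the authors placed reads that fit several copies, and the part of shared reads in these values was not tested.

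The chromosome 11 cluster carried U2 names at 3 of its 4 member peaks, which stood lower by median rank. Its 4 peaks lay over 41.4 kb and had median ranks of 48, 36 and 58.5, against 23, 26 and 16 for the Eapp cluster and 22, 19 and 23 for chromosome 3. The LOC666331 peak, from 101466104 to 101466410 and 5757 bp upstream of the TSS, had the lowest scores of all members at 111, 110.0 and 122. The peak classed at the promoter of Rdm1, a gene related to RAD52 of DNA repair, lay from 101488623 to 101488966 with its midpoint 469 bp upstream of the TSS. It scored 220.1, 254 and 201.0 in replicates 1, 2 and 3, and RefSeq places an snRNA gene, LOC115487916, within Rdm1. The 2 U2 repeat peaks beyond Rdm1, from 101502810 to 101503485 and from 101506772 to 101507524, scored 389, 397 and 265, and 409, 422 and 256. Both stood lower in replicate 3, at ranks 45 and 47, than in the other lists, where they held ranks 18 to 33. In replicate 2 both scored above the median of the Eapp cluster, 374.9. In replicates 1 and 3 both were below it, at 550.8 and 582.9. The peak assigned to Arl4d, also a U2 repeat, continued the row with 266, 390.2 and 330 (from 101519405 to 101519849). Its ranks of 50, 22 and 38 are not in the medians above, nor are those of the Fcgr1 peak in the medians of chromosome 3.

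Rnu11, the gene of the U11 snRNA, was the only member whose peak covered the TSS of its nearest gene. The peak on chromosome 4, from 131825734 to 131826483, had its midpoint 7 bp upstream of the TSS and was 750 bp wide, against 108 bp for the gene. It scored 539 in replicate 1, 558 in replicate 2 and 397 in replicate 3, at ranks 25, 15 and 26. No near-copy with an equal score and width was found in any list. Replicate 2 alone had weak peaks nearby, with midpoints 2215 and 19001 bp away and scores of 42.4 and 53.2.

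The member peaks were wider than the other common peaks. Their median width in the common table was 672 bp (range 246 to 1111 bp), against 274 bp for the other 757. In the single lists the medians were 672, 416 and 459 bp against 272, 249 and 233 bp. Of the 233 common peaks in all 3 lists, 224 had the outer edges of the replicate 1 and 2 peaks. A shift of 1 bp at the start was allowed. The common widths of these 224 thus took no account of replicate 3. Width comes from the same peak calls as the score, which chose the members. The 5 snRNA repeat peaks at Tex14, of which 4 are U3 and 1 is U1, had a median width of 857 bp and best scores of 898 to 2900. The remaining 21 snRNA repeat peaks, that at Arl4d included, had a median width of 248 bp and best scores from 50.4 to 424, and 15 of them were in all 3 lists. The best scores of the members, 122 to 1480.2, thus lay between these 2 sets with overlap on both sides.

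**Figure D4:**
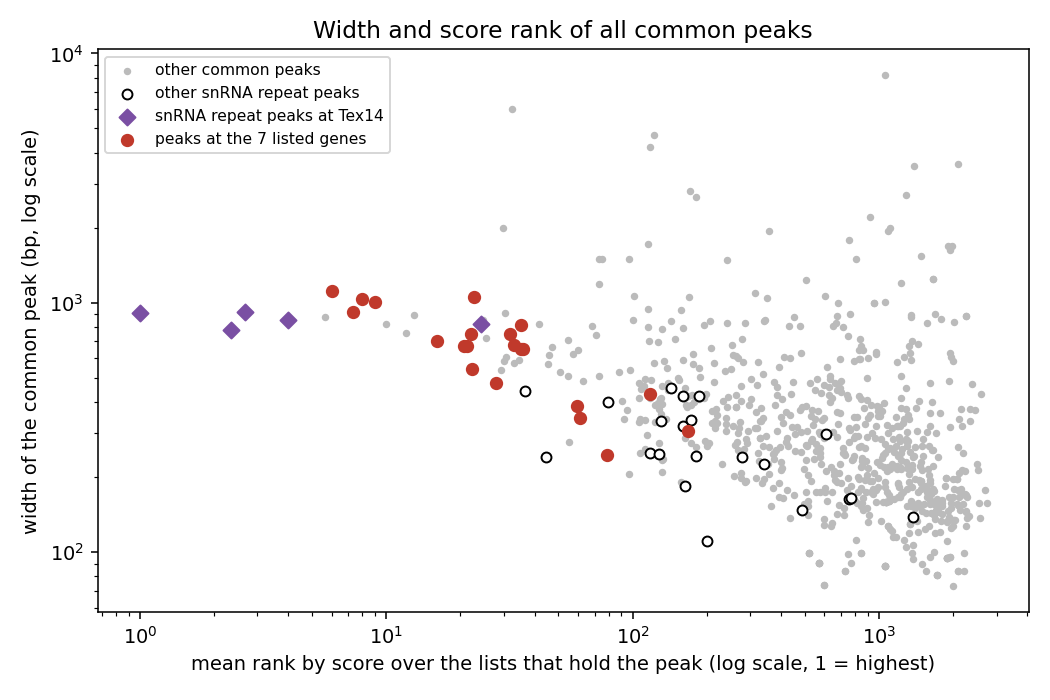
Width of each of the 778 common peaks in bp against its mean rank by score over the lists that hold it (both log scales, rank 1 highest). The 21 member peaks lie at ranks 6 to 168 with widths of 246 to 1111 bp, beside the Tex14 snRNA repeat peaks and to the left of most other snRNA repeat peaks.

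Some lists of genes of snRNA production held 1 or 2 nearest genes of common peaks, and others held none. Over all 49997 genes of the RefSeq table the share was 1.31%. This also counts genes that the deposited annotation did not use as names. The shares were 8.33% of snRNA-type, 11.8% of Integrator, 6.67% of export and assembly and 12.5% of telomerase genes, each from 1 or 2 genes. Of 24 snRNA-type genes 2 were named, Rnu11 and Terc, which are members by the rule. The U1 and U2 copies were not used as gene names in the deposited annotation. Of 17 Integrator genes, 2 had a peak at the promoter: Ints6, 15 bp downstream of the TSS, where replicate 1 scored 105.03, replicate 2 scored 42.3 and replicate 3 had no peak, and Asun, now Ints13, 281 bp downstream, with 45.5, 55.99 and 58.6. Of 15 genes of snRNA export and assembly, Tgs1, the enzyme that makes the trimethylated cap of snRNAs, had an intronic peak 39207 bp downstream of the TSS, with scores of 63.4, 97.3 and 50.9. None of 21 snRNA transcription genes, SNAPc subunits included, 26 Sm and snRNP protein genes or 9 minor spliceosome protein genes was named. Rough limits of 14.3%, 11.5% and 33.3% would apply if the genes were random draws. The lists were chosen and counted in full, so these limits only show how short the lists are. Among 8 telomerase genes only Terc was named, by the distant peaks described above.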

How the data were processed

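SOX3 ChIP-seq was measured in 3 testis samples, grouped by the labels. Per the labels' protocols, tissue was fixed in 1% formaldehyde for 8 min and sonicated for 15 min, and libraries were read as 50 bp single reads. Bowtie2 2.0.0 and mm9 are named in the submitters' processing notes. The deposited lists, called per sample, give each peak a score, on a scale that no source used here names. Per the file headers, the deposited common table is HOMER annotation, in mm9, of peaks found in at least 2 samples. Its own score was 0 throughout. No source used here gives the caller's settings or its handling of reads with several positions, and both can change peaks in copied sequence. Read depth is unknown, so no counting interval is given, and limits for counts of 0 use 3 counts.

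A common peak took the best-scoring list peak overlapping it by at least 1 bp, checked with bedtools 2.31.1 and tested on simulated data. Python 3.11.15 and pandas 2.3.3 were used. Gene names, order and the sequence came from RefSeq tables for GRCm38.p6. Motifs were searched as exact letters. The text names every member gene, with values for all member peaks, and any gene of the fixed lists nearest to a common peak. Members, lists and alternatives were chosen with earlier results of these data known. The ACTTACCTG and AATTTGTGG motifs, the pairs, the gaps and the mirror spacing were added after the values were seen. Alternatives were another overlap, stricter scores, a list left out and joined peaks.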

Additional observations from a re-analysis of the deposited data

How the results depend on the processing

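Of the 21 member peaks in all 3 lists, 17 were so under a 50% reciprocal overlap. Leaving out a list, or taking only list peaks of 100 or more, could not change the counts of 21, since every member already had such a peak in each list. With common peaks within 10 kb counted as 1 place, 11 of 11 places were in all 3 lists and 11 had scores of 100 or more. Among the rows in an snRNA repeat alone, 10 of 10 were in all 3 lists. These lower counts follow from the fewer units. The median over the members of the mean rank was 28.0, and 31.7 under the reciprocal overlap, 31.0 with joined places and 26.5 to 27.5 with a replicate left out. The mean of the list medians of width was 515.7 ± 137 bp (SD, n = 3), and 437.5 to 565.5 bp with a replicate left out. An snRNA was named at 10 member peaks by the detailed annotation, at 0 by the basic annotation and at 1 by the gene type of the nearest gene. Of 5 listed snRNA-related genes nearest to a common peak, 3 were within 5000 bp of the TSS, a limit added after seeing the data. The planned motif search in the promoters of snRNA-type genes was not run, since 0 of them had a promoter window in the table used. No paired analysis was possible because only 1 group had peak lists. Read depth is unknown, and without values of the input the background at these loci, the multi-copy ones included, was not tested.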
